A study of Mus musculus with 6 samples.

Results

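The Sle3 region described here is 114 protein-coding genes of mouse chromosome 7, of 33300 features measured. They are the genes whose start lies between positions 30000001 and 60000000 (mm10) and whose mean over all 6 libraries was at least 1 FPKM, the fragments per kb of transcript per 1000000 assigned reads. Ribosomal, NADH dehydrogenase, cytochrome oxidase and Zfp gene names were left out, as were 11 genes chosen by name. The window held 531 features, of which 311 were protein-coding; 171 of these had a mean under 1 FPKM and 26 more were left out by name. The level chose the members, so a gene that is high in only 1 group could enter through that group alone. Just inside the limit were Hpn, with a mean of 1.08 FPKM, and Tmem143, with 1.196 FPKM. Just outside it were Ppfia3, with 0.885 FPKM, and Prrg2, with 0.823 FPKM.

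RNA came from 3 SLE1.2.3 mice and 3 control mice, whose genotype label is WT, with 1 library a mouse. SLE1.2.3 is the name of a lupus-prone congenic line that carries the Sle1, Sle2 and Sle3 susceptibility intervals. The sources used here give neither the strain of the control mice, nor the age of the animals, nor the borders of the intervals. The labels therefore do not say which of the 114 genes lie inside the transferred segment. Both groups were cultured alike as naive CD4 T cells on plates coated with antibodies to CD3 and CD28. The cultures ran for 5 days under Th17 conditions, with anti-IL-4 and anti-IFN-γ at 10 µg/mL each, TGF-β1 at 1 ng/mL, IL-23 at 10 ng/mL, IL-6 at 50 ng/mL and IL-1β at 10 ng/mL.

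Sle3 is a lupus susceptibility locus of the NZM2410 mouse that lies on chromosome 7, and its congenic strains are known for changed T cell activation and for changes in antigen-presenting cells. A congenic interval brings in the donor's alleles of every gene it spans, so neighbours with unrelated roles travel together. Th17 cells are the T helper subset that makes the cytokine IL-17.

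The promoters of 5 members whose levels are described further on are shown here. They were picked by hand, and some members not shown, such as Hspb6 and Iglon5, changed more than Fancf. Each run is the 250 bases before the RefSeq start site in the table for GRCm38.p6, read 5′ to 3′ on the gene's own strand. Capitals mark matches, on either strand, to 6 motifs searched, and all of those found are the GC box GGGCGG or the CCAAT box. The regions are chr7:30598910-30599159 (minus strand), chr7:34912157-34912406 (plus strand), chr7:38227995-38228244 (minus strand), chr7:38271349-38271598 (minus strand) and chr7:51862268-51862517 (minus strand).
Zbtb32: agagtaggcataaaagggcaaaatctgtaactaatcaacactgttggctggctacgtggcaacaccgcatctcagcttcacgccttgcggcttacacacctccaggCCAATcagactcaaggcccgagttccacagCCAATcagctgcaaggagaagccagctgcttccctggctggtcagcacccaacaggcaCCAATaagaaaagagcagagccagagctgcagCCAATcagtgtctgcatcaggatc
Pepd: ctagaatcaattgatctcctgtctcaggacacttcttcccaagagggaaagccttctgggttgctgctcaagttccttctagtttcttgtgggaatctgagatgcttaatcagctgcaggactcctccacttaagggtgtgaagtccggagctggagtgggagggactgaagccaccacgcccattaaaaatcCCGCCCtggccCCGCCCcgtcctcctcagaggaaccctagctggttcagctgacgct
Plekhf1: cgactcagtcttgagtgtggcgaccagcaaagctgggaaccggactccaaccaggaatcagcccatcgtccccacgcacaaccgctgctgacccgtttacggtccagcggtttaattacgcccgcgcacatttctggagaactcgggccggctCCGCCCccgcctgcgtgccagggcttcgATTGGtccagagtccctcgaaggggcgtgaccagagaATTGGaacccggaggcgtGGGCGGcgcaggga
Pop4: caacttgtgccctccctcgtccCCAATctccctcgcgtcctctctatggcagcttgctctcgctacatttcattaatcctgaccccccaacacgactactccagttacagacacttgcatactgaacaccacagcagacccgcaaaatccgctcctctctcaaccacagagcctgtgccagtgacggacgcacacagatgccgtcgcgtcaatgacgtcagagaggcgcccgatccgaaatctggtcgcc
Fancf: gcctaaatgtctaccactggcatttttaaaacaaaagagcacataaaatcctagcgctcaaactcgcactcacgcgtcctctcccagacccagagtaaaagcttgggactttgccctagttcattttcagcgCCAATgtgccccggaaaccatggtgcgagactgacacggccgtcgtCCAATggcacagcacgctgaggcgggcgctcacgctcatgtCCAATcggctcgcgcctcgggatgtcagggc
The Zbtb32 window held 4 CCAAT matches, a number reached or passed in 1.02% of 21262 windows of protein-coding genes of any level. Fancf held 3 CCAAT matches and Pop4 held 1. Plekhf1 held 2 CCAAT matches and 2 GC boxes, and Pepd held 2 GC boxes and no CCAAT match.

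A promoter window was found for 95 members. In the same 250 bases before the start, searched on both strands, the GC box was found in 65.3% of these members and in 42.6% of all protein-coding genes. The CCAAT box was found in 41.1% of members and 35.4% of all genes, and the TATA box TATAAA in 2.11% of members and 11.6% of all genes. The E-box CACGTG was found in 6.32% of members and 6.63% of all genes, the AP-1 site TGANTCA in 3.16% of members and 6.13% of all genes, and the STAT-type site TTCNNNGAA in 5.26% of members and 6.58% of all genes. Members that rose held a GC box in 64.7% of 17 windows, members that fell in 50.0% of 20 and members that were not called in 70.7% of 58. The windows of all protein-coding genes were not filtered by level, while the members averaged at least 1 FPKM, so these shares compare unlike sets of genes. These matches describe letters and were not tested.

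Reads assigned to features, worked out from the smallest steps between FPKM values, numbered 61.7 to 83.5 M (M for 1000000) in the SLE1.2.3 libraries and 29.7 to 56.8 M in the control libraries. The median member had 1926 reads in its median library, and the lowest count of any member in any library was 34 reads; 5 members had fewer than 100 reads in their lowest library. SLE1.2.3 library 1 stood between the groups on the first principal component of all tested genes, with a score of 4.25 against 33.9 and 49 in libraries 2 and 3 and -28.6 to -29.5 in the control libraries. Of 7 T helper and Th17 markers, 3 were higher in SLE1.2.3 cells, among them Il17a and Il23r, and none was lower; their summed level ran from 3108 to 3523 FPKM in SLE1.2.3 libraries and from 1833 to 2208 FPKM in control libraries. The 6 γδ and innate-like T cell markers were all higher in SLE1.2.3 cells, and their summed level ran from 53.4 to 534 FPKM in SLE1.2.3 libraries and from 2.7 to 3.05 FPKM in control libraries. Trdc, the constant region of the δ chain, had levels of 4.96, 18.9 and 45.2 FPKM in libraries 1, 2 and 3 of the SLE1.2.3 group. CD8 T and NK markers, of which 2 of 5 were higher, summed to 30.1 to 154 FPKM in SLE1.2.3 and 10.8 to 12.03 FPKM in control libraries. B and plasma cell markers, of which 3 of 7 were higher, summed to 62.7 to 161 FPKM in SLE1.2.3 and 2.59 to 4.43 FPKM in control libraries, while Ms4a1 was at most 0.043 FPKM in any library. Myeloid markers, of which 1 of 6 was lower, summed to 3.13 to 11.1 FPKM in SLE1.2.3 and 7.63 to 9.29 FPKM in control libraries. Their part in the results on the members was not tested. In bulk RNA, a change in the number of cells of a type and a change in RNA per cell cannot be told apart.

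Of the 114 members, 45 passed the test between SLE1.2.3 and control cells, which is 39.5%; 23 rose and 22 fell. The test was limma on log2(FPKM + 1), with p-values adjusted over all 11378 features tested and a threshold of 0.05, and 15.2% of all those features passed it. By direction, 9.65% of all features rose and 5.58% fell. The share in the window is larger than the share over all features, but no test of the difference in shares was made, and the members were picked by level in these same libraries. Of the 26 genes left out by name 7 passed, or 26.9%. Of 676 tested features elsewhere on chromosome 7, 19.5% passed; the shares were 18.2% on chromosome 1 and 15.8% on chromosome 4, which hold Sle1 and Sle2, and 14.3% on the other chromosomes. In 63 members, or 55.3%, the 3 SLE1.2.3 values lay wholly above or below the 3 control values, against 41.5% of all features. The median absolute log2 difference was 0.64 for the 45 members and 0.62 for all features that passed. A log2 difference of at least 1 in size was reached by 8 of the members that passed, or 7.02% of all 114, beside 4.25% of all features. Among the 108 members with a mean of at least 1 FPKM in each group, 6 passed with such a difference.

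**Figure D1:**
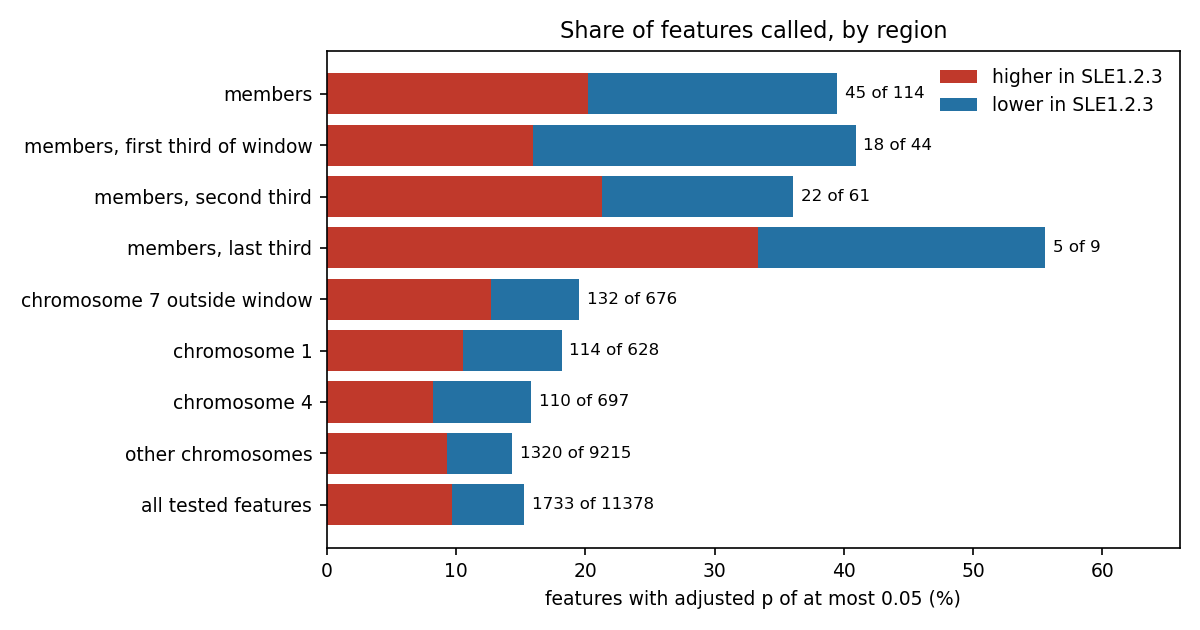
Percentage of tested features with an adjusted p of at most 0.05 (horizontal axis), with rises and falls in SLE1.2.3 cells stacked, for the members, in all and by 10 Mb of the window, and for other regions. The bar of the members reaches 39.5%, and the bar of all tested features 15.2%.

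A few choices limit this count. 6 members entered with a mean under 1 FPKM in 1 group, namely Hpn, Iglon5, Ntf5, Ptpn5, Fxyd7 and Gas2, and all 6 passed; without them 39 of 108 passed, 20 higher and 19 lower, a split made after seeing the data. Scaling the libraries to a common FPKM sum raised the median log2 difference of all features to 0.11, and 30 members passed, 20 higher and 10 lower, of which 29 are among the 45; this stands beside 11.8% of all features. Leaving out 1 mouse lowered the count to 17, 14 and 17 without control mouse 1, 2 or 3, and to 15 without SLE1.2.3 mouse 2. The same omissions lowered the calls over all features to 327, 261, 288 and 240, against 1733 with all mice. Without mouse 1 of the SLE1.2.3 group 51 members passed, and without its mouse 3 it was 38. Over all 11378 features, 3701 and 1290 passed in these 2 omissions.

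Along the chromosome, members that rose and members that fell were interleaved. Between 30 and 40 Mb 18 of 44 members passed (40.9%), 7 higher and 11 lower. Between 40 and 50 Mb it was 22 of 61 (36.1%), 13 higher and 9 lower. Between 50 and 60 Mb it was 5 of 9 (55.6%), 3 higher and 2 lower. Over all features tested 15.2% passed, 9.65% higher and 5.58% lower. Members next to each other in order that passed in the same direction formed 7 runs of 2 or 3 genes. These runs span from 44.8 to 3366.5 kb, and runs outside the window were not counted. Levels below are listed for mice 1, 2 and 3 of each group, and log2 differences are SLE1.2.3 minus control on the log2(FPKM + 1) scale, which understates the change of low genes. The p-values set the difference between the groups against the spread between mice. Each mouse gave 1 culture and 1 library, so mouse, culture and library variation cannot be told apart.

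**Figure D2:**
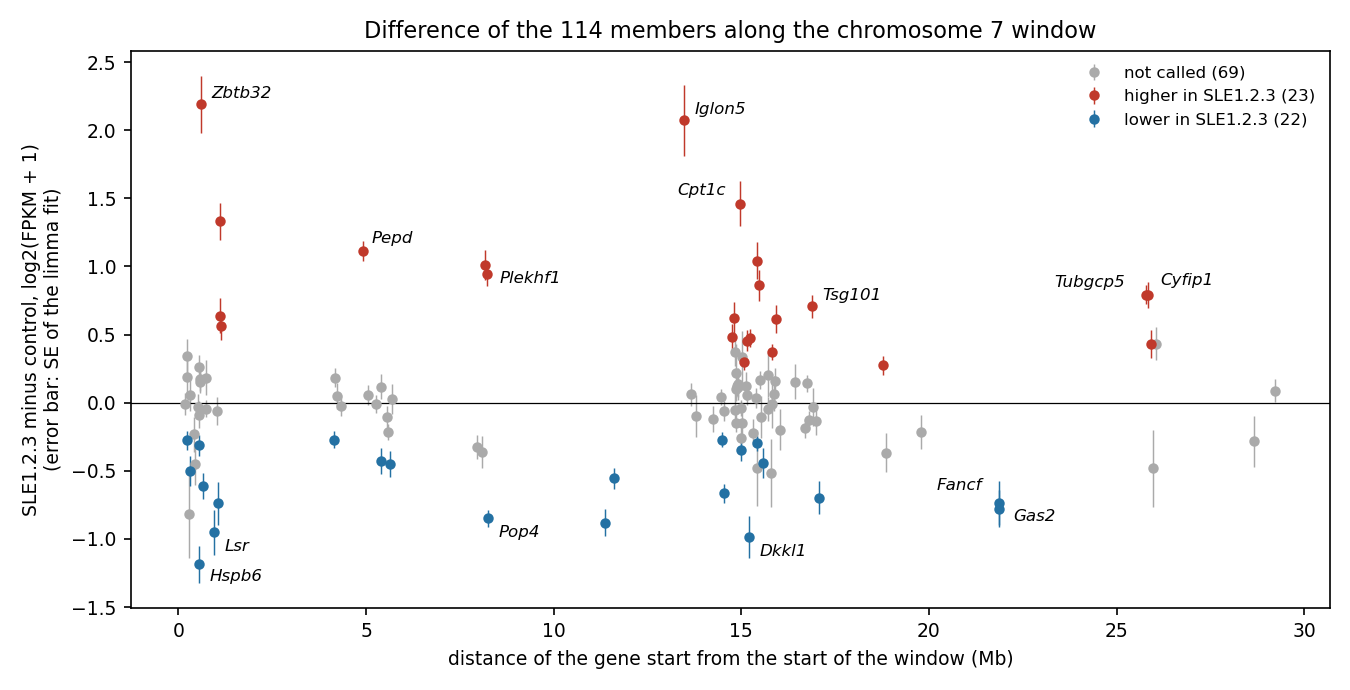
Difference between SLE1.2.3 and control cells on the log2(FPKM + 1) scale (vertical axis, error bars are the SE of the limma fit) for the 114 members, against the distance of the gene start from the window start in Mb. The 23 members that rose and the 22 that fell lie side by side along the window, with Zbtb32 highest at 2.19 and Hspb6 lowest at -1.19.

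The first cluster, from Capns1 to Gramd1a (30186936 to 31155896), held 26 members, among them the gene with the largest rise on the log2(FPKM + 1) scale. Zbtb32, a BTB zinc finger repressor that restrains T cell activation and cytokine genes, is the minus-strand gene at 30589681 to 30598909 whose promoter has 4 CCAAT matches. It had 16.98, 28.7 and 24.2 FPKM in SLE1.2.3 cells, against 5.28, 3.92 and 3.60 FPKM in control cells. The lowest SLE1.2.3 value was more than 3 times the highest control value, and the groups did not overlap. The log2 difference was 2.19 ± 0.21 (SE), adjusted p = 0.005, a 5.46-fold ratio of means.

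Hspb6, a small heat shock protein (30552178 to 30555443), was the member with the largest fall. It had 1.42, 1.41 and 1.42 FPKM in SLE1.2.3 cells, against 3.75, 5.71 and 4.23 FPKM in control cells. The 3 SLE1.2.3 values were nearly the same, while the control values varied, and all of the control values were higher; the log2 difference was -1.19 ± 0.13 (SE), adjusted p = 0.0074. Lsr, a lipoprotein receptor and component of tricellular junctions, had 1.88, 1.13 and 0.932 FPKM in SLE1.2.3 cells, against 3.87, 3.31 and 3.08 FPKM in control cells, with a log2 difference of -0.95 ± 0.17 (SE), adjusted p = 0.019. It fell furthest in SLE1.2.3 library 3, and 43.6% of its exon bases are shared with the antisense gene Gm4673, so reads of both genes cannot be told apart without the strand setting. Haus5, a subunit of the augmin complex of the mitotic spindle, had 1.02, 0.877 and 1.25 FPKM in SLE1.2.3 cells, against 2.08, 2.12 and 2.16 FPKM in control cells, with a log2 difference of -0.61 ± 0.10 (SE), adjusted p = 0.015. Its value is uncertain, since 56.5% of its exon bases belong also to Gm21982 and a processed pseudogene, Gm8146, matches 85% of its transcript at 97.4% identity. Gm8146 had 0.746, 0.685 and 0.959 FPKM in SLE1.2.3 cells, against 0.043, 0.048 and 0.018 FPKM in control cells, the opposite direction.

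At the end of the cluster, Hpn and Gramd1a rose. Gramd1a, a sterol carrier of the endoplasmic reticulum, averaged 82.9 ± 11.4 FPKM in SLE1.2.3 cells and 55.5 ± 0.758 FPKM in control cells (SD, n = 3 each), with a log2 difference of 0.56 ± 0.10 (SE), adjusted p = 0.022. It shares 8.02% of its exon bases with the antisense RNA G630030J09Rik. Hpn, the serine protease hepsin, averaged 1.53 ± 0.313 FPKM in SLE1.2.3 cells and 0.62 ± 0.115 FPKM in control cells, with a log2 difference of 0.64 ± 0.13 (SE), adjusted p = 0.026. Just before Hpn, Fxyd7, of the family that regulates the sodium pump, fell by 0.74 on the log2 scale (adjusted p = 0.03) on the fewest reads of any member. Its neighbour Fxyd5 (dysadherin, a cell surface regulator of adhesion) had the highest mean of all members, 151 FPKM, and did not pass: it had 168, 141 and 135 FPKM in SLE1.2.3 cells, against 159, 161 and 143 FPKM in control cells, with groups that overlapped.

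Smaller falls in the cluster were seen for Wdr62, a spindle pole protein, Alkbh6, an AlkB-family dioxygenase homologue, and Psenen, a γ-secretase subunit needed for Notch processing. Alkbh6 averaged 3.72 ± 0.592 FPKM in SLE1.2.3 cells and 5.68 ± 0.435 FPKM in control cells (log2 difference -0.50 ± 0.11 (SE), adjusted p = 0.032). The log2 differences of Wdr62 and Psenen were -0.28 and -0.31, with adjusted p = 0.047 and 0.045, close to the threshold. Nfkbid, the nuclear IκB protein IκBNS, averaged 10.1 ± 0.714 FPKM in SLE1.2.3 cells and 12.2 ± 2.15 FPKM in control cells and did not pass (log2 difference -0.23 ± 0.13 (SE), adjusted p = 0.24). Nor did Kmt2b, a histone H3 lysine methyltransferase, at 19.3 ± 0.638 FPKM in SLE1.2.3 cells and 17.3 ± 1.62 FPKM in control cells (log2 difference 0.15 ± 0.08 (SE), adjusted p = 0.23), nor Capns1, the calpain regulatory subunit, with a mean of 122 FPKM and a log2 difference of -0.01 ± 0.08 (SE), adjusted p = 0.95.

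Further along lay 13 members from Uba2 to Dpy19l3 (34140688 to 35754454), of which Pepd alone rose and 3 fell. Over all features tested 9.65% rose and 5.58% fell. Pepd, the peptidase prolidase that frees proline from dipeptides (34912379 to 35044708), is the plus-strand gene with a pair of GC boxes near its start. It had 11.9, 13.4 and 12.7 FPKM in SLE1.2.3 cells, against 4.95, 5.31 and 5.71 FPKM in control cells. The values were tight within each group and did not overlap, and its adjusted p was the smallest of all members; the log2 difference was 1.11 ± 0.07 (SE), adjusted p = 0.0017, a 2.38-fold ratio of means. Cebpg, the transcription factor gene that follows it, averaged 11.3 ± 0.732 FPKM in SLE1.2.3 cells and 10.8 ± 0.525 FPKM in control cells (log2 difference 0.06 ± 0.07 (SE), adjusted p = 0.61).

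The members of this stretch that fell were Uba2, Cep89 and Pdcd5. Cep89, a centrosomal protein, averaged 3.91 ± 0.219 FPKM in SLE1.2.3 cells and 5.61 ± 0.705 FPKM in control cells (log2 difference -0.42 ± 0.10 (SE), adjusted p = 0.035). Uba2, a subunit of the SUMO-activating enzyme, averaged 30.6 ± 0.884 FPKM in SLE1.2.3 cells and 37.1 ± 1.61 FPKM in control cells (log2 difference -0.27 ± 0.06 (SE), adjusted p = 0.035). Pdcd5, a protein tied to apoptosis and chaperonins, averaged 15.8 ± 0.605 FPKM in SLE1.2.3 cells and 21.99 ± 2.55 FPKM in control cells (log2 difference -0.45 ± 0.09 (SE), adjusted p = 0.029). It has a processed pseudogene, Pdcd5-ps, identical over 41.1% of its transcript. That copy had 11.5, 10.7 and 11.7 FPKM in SLE1.2.3 cells, against 6.62, 7.35 and 5.65 FPKM in control cells, so the share of reads between gene and copy is uncertain.

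A sharp change of direction between neighbours was found in the third stretch, from Uri1 to an unnamed RIKEN gene (37959992 to 41628533). This stretch is not compact, since a wide gap follows Pop4. Plekhf1, an adaptor of endosomes and lysosomes that binds phosphoinositides (38216972 to 38228016), rose, and Pop4, a protein subunit of RNase P and RNase MRP (38261996 to 38271423), the next member, fell. Plekhf1 had 6.70, 7.05 and 7.88 FPKM in SLE1.2.3 cells, against 3.22, 3.58 and 3.01 FPKM in control cells. Pop4 had 8.22, 8.71 and 8.90 FPKM in SLE1.2.3 cells, against 16.9, 16.6 and 15.4 FPKM in control cells. Both are on the minus strand, neither had overlapping groups, and their log2 differences were 0.94 ± 0.09 (SE), adjusted p = 0.0042, for Plekhf1 and -0.85 ± 0.07 (SE), adjusted p = 0.0025, for Pop4. Their ratios of means were 2.20 and 0.527. Ahead of Plekhf1 a RIKEN gene also rose, in a run of 44.8 kb. The next 2 members after Pop4, genes without a proper name, fell as well. They lie beyond the gap, the first starting at 41372923, and the run from Pop4 on spans 3366.5 kb. Ccne1, cyclin E1 of the transition into S phase, and Uri1, a prefoldin-like protein named here after its values were seen, did not pass. Ccne1 had 14.1, 13.3 and 17.96 FPKM in SLE1.2.3 cells, against 21.1, 18.3 and 19.4 FPKM in control cells, with all SLE1.2.3 values below all control values (log2 difference -0.36 ± 0.12 (SE), adjusted p = 0.086). Uri1 averaged 23.2 ± 2.16 FPKM in SLE1.2.3 cells and 29.3 ± 2.05 FPKM in control cells (log2 difference -0.33 ± 0.09 (SE), adjusted p = 0.057).

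**Figure D3:**
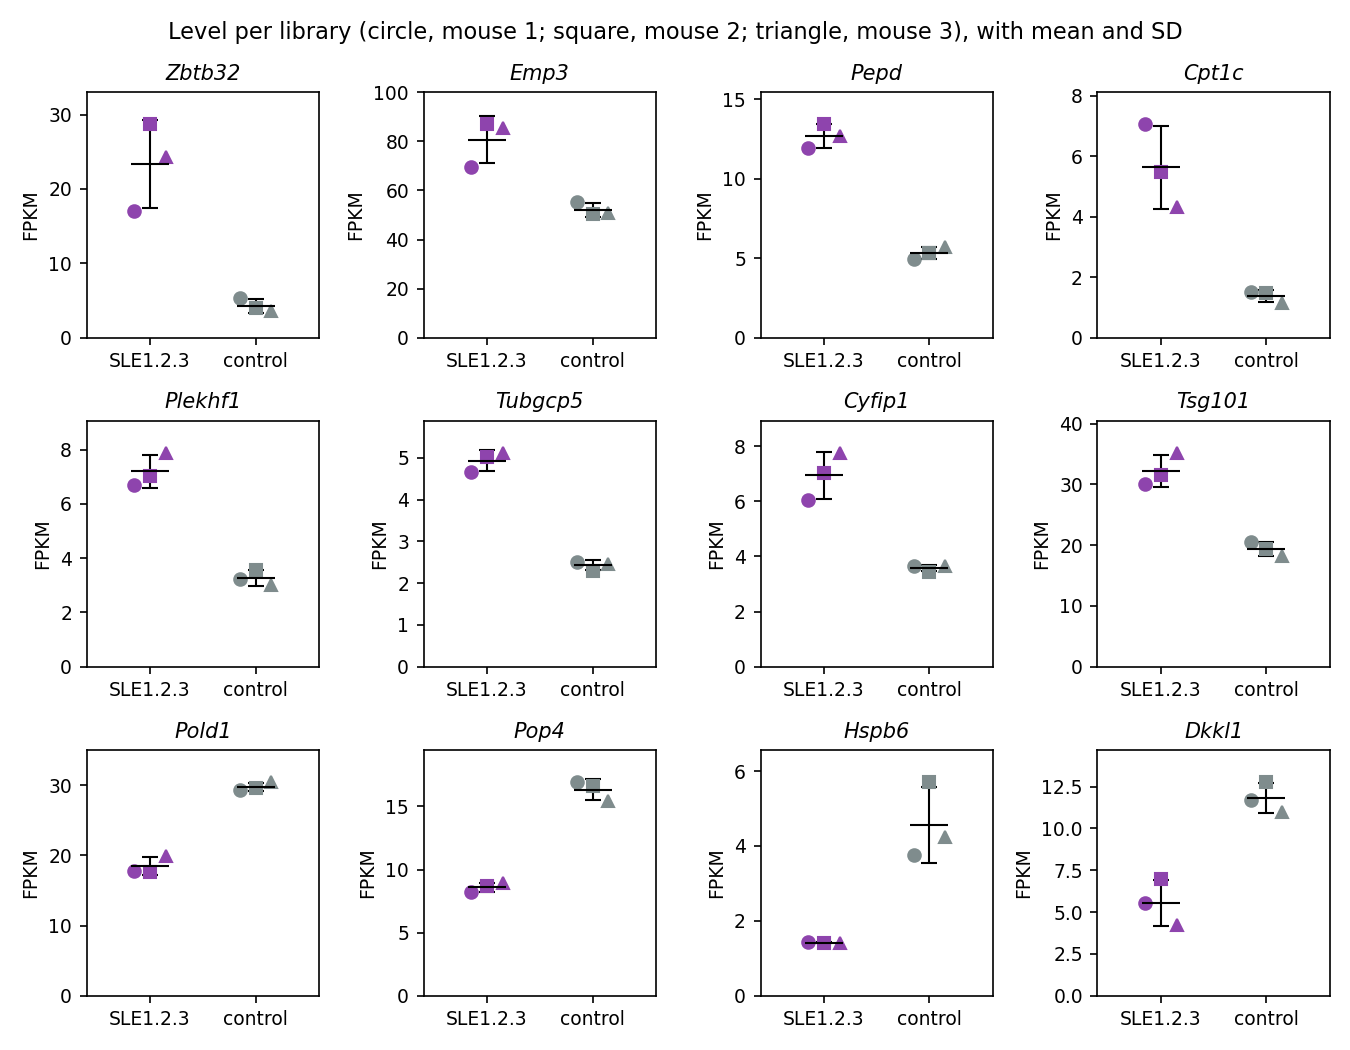
FPKM per library (vertical axes, each starting at 0) of 12 members in SLE1.2.3 and control cells, with the mean and SD of 3 mice; the marker shape gives the mouse number. In none of the 12 do the groups overlap, and for Zbtb32 the SLE1.2.3 values run from 16.98 to 28.7 FPKM and the control values from 3.60 to 5.28 FPKM.

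The fourth cluster, from Iglon5 to Ptpn5 (43472904 to 47133684), held about as many members as the rest of the window together. Iglon5, a cell adhesion protein of the immunoglobulin superfamily, had 3.31, 5.92 and 8.04 FPKM in SLE1.2.3 cells, against 0.667, 0.477 and 0.475 FPKM in control cells. The control values were low and the SLE1.2.3 values differed among themselves, lowest in library 1; the log2 difference was 2.07 ± 0.26 (SE), adjusted p = 0.009. Its ratio of means, 10.7, was the highest of all members, above the 5.46 of Zbtb32. With a pseudocount of 0.1 its log2 difference was 3.12. Iglon5 averaged 0.54 FPKM in control cells, so it met the limit of 1 FPKM only through the SLE1.2.3 group. Its large ratio is therefore partly built in by the choice of members. Cpt1c, the neuronal isoform of carnitine palmitoyltransferase (44959372 to 44974851), had 7.06, 5.49 and 4.33 FPKM in SLE1.2.3 cells, against 1.51, 1.49 and 1.13 FPKM in control cells. Here library 1 was the highest of the SLE1.2.3 group, and the log2 difference was 1.46 ± 0.16 (SE), adjusted p = 0.0071. Ntf5, the neurotrophin-4 gene, had the same order, at 2.83, 2.15 and 1.83 FPKM in SLE1.2.3 cells, against 0.704, 0.557 and 0.469 FPKM in control cells (log2 difference 1.04 ± 0.14 (SE), adjusted p = 0.0097). Dhdh, a dihydrodiol dehydrogenase, averaged 2.84 ± 0.262 FPKM in SLE1.2.3 cells and 1.12 ± 0.235 FPKM in control cells (log2 difference 0.86 ± 0.11 (SE), adjusted p = 0.0097).

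Dkkl1, a Dickkopf-like secreted protein best known from testis, had the largest fall of this cluster on the log2(FPKM + 1) scale; by ratio of means it was 0.47, against 0.411 for Ptpn5. It had 5.51, 6.95 and 4.21 FPKM in SLE1.2.3 cells, against 11.7, 12.8 and 10.97 FPKM in control cells. All SLE1.2.3 values were lower than all control values, and the log2 difference was -0.99 ± 0.16 (SE), adjusted p = 0.016. Pold1, the catalytic subunit of the replicative DNA polymerase δ (44532746 to 44548849), had 17.8, 17.6 and 19.97 FPKM in SLE1.2.3 cells, against 29.4, 29.6 and 30.5 FPKM in control cells. The groups did not overlap, and the log2 difference was -0.67 ± 0.07 (SE), adjusted p = 0.0058. Emc10, a subunit of the membrane protein complex of the endoplasmic reticulum, is the next member before Pold1 and fell less, by 0.27 on the log2 scale (adjusted p = 0.032).

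Vrk3 and Atf5 rose side by side over 68.2 kb. Atf5, a bZIP factor of the mitochondrial stress response, averaged 11.8 ± 1.55 FPKM in SLE1.2.3 cells and 7.29 ± 0.834 FPKM in control cells (log2 difference 0.62 ± 0.12 (SE), adjusted p = 0.023). Vrk3, of the vaccinia-related kinase family, averaged 8.41 ± 0.966 FPKM in SLE1.2.3 cells and 5.70 ± 0.219 FPKM in control cells (log2 difference 0.48 ± 0.09 (SE), adjusted p = 0.022). Cd37, a tetraspanin of leukocytes, had 57.4, 59.1 and 52.2 FPKM in SLE1.2.3 cells, against 40.7, 40.1 and 39.9 FPKM in control cells, with a log2 difference of 0.47 ± 0.07 (SE), adjusted p = 0.012. Emp3, a tetraspan membrane protein, had 69.6, 87.1 and 85.6 FPKM in SLE1.2.3 cells, against 55.5, 50.4 and 50.7 FPKM in control cells, with a log2 difference of 0.61 ± 0.10 (SE), adjusted p = 0.018. In neither gene did the groups overlap, and both are abundant in the cells of both groups.

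Tsg101, a subunit of the ESCRT-I complex that sorts ubiquitinated cargo (46888949 to 46919969), had 29.98, 31.5 and 35.1 FPKM in SLE1.2.3 cells, against 20.5, 19.3 and 18.2 FPKM in control cells. The groups lay far apart, and the log2 difference was 0.71 ± 0.08 (SE), adjusted p = 0.0074. Its pseudogene Tsg101-ps stayed at or under 0.42 FPKM. Ptpn5, a tyrosine phosphatase, is the last member of the cluster and averaged 0.773 ± 0.15 FPKM in SLE1.2.3 cells and 1.88 ± 0.326 FPKM in control cells (log2 difference -0.70 ± 0.12 (SE), adjusted p = 0.02). Smaller rises were those of Aldh16a1 (aldehyde dehydrogenase family) at 0.46, Cyth2 (an ARF exchange factor) at 0.37 and Nosip (an E3 ubiquitin ligase that binds nitric oxide synthase) at 0.30 on the log2 scale. Smaller falls were those of Bcat2, the mitochondrial branched-chain aminotransferase, at -0.44, Bcl2l12 of the BCL2 family at -0.35, and Ruvbl2, an ATPase of chromatin remodelling complexes, at -0.30. Of these, Bcat2, Bcl2l12, Ruvbl2 and Cyth2 share from 10.7% to 29.0% of their exon bases with a gene on the other strand.

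Several well-known members of this cluster did not pass. Prmt1, the main arginine methyltransferase, had 43.3, 41.9 and 48.4 FPKM in SLE1.2.3 cells, against 56.99, 51.1 and 52.6 FPKM in control cells (log2 difference -0.26 ± 0.08 (SE), adjusted p = 0.072), with all SLE1.2.3 values lower. Nr1h2, the oxysterol receptor LXRβ, averaged 32.9 ± 2.43 FPKM in SLE1.2.3 cells and 34.4 ± 1.23 FPKM in control cells (log2 difference -0.06 ± 0.07 (SE), adjusted p = 0.57). Flt3l, the ligand of the receptor FLT3, averaged 7.31 ± 0.604 FPKM in SLE1.2.3 cells and 6.67 ± 0.886 FPKM in control cells (log2 difference 0.12 ± 0.10 (SE), adjusted p = 0.44), and Ppp1r15a, which directs dephosphorylation of eIF2α, averaged 15.9 ± 3.34 FPKM in SLE1.2.3 cells and 17.02 ± 1.40 FPKM in control cells (log2 difference -0.11 ± 0.15 (SE), adjusted p = 0.65). Snrnp70, the U1 small nuclear RNP protein, had the highest mean of the cluster, 66.8 FPKM, and a log2 difference of 0.03 ± 0.07 (SE), adjusted p = 0.79.

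Beyond the fourth cluster lay the remaining 12 members. Zdhhc13, a palmitoyltransferase (48789003 to 48827440), had 11.1, 10.7 and 11.2 FPKM in SLE1.2.3 cells, against 9.65, 8.72 and 8.44 FPKM in control cells (log2 difference 0.27 ± 0.07 (SE), adjusted p = 0.045). Fancf, of the Fanconi anaemia core complex, had 2.43, 3.25 and 4.35 FPKM in SLE1.2.3 cells, against 6.46, 6.22 and 5.67 FPKM in control cells (log2 difference -0.73 ± 0.16 (SE), adjusted p = 0.034). Gas2, a growth arrest protein that binds the cytoskeleton, starts within Fancf on the other strand and had 0.72, 0.825 and 0.88 FPKM in SLE1.2.3 cells, against 1.75, 2.75 and 1.89 FPKM in control cells (log2 difference -0.78 ± 0.14 (SE), adjusted p = 0.02). Both fell with no overlap of the groups, and they share 253 exon bases, 14.96% of those of Fancf and 5.07% of those of Gas2.

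The last run comprised Tubgcp5, Cyfip1 and Nipa2, which rose together over 168.3 kb (55794154 to 55962476). In humans these genes neighbour the Prader-Willi and Angelman region. Tubgcp5, a γ-tubulin complex component, had 4.65, 5.03 and 5.12 FPKM in SLE1.2.3 cells, against 2.52, 2.30 and 2.47 FPKM in control cells (log2 difference 0.79 ± 0.07 (SE), adjusted p = 0.0036). Cyfip1, a subunit of the WAVE complex that controls actin branching, had 6.04, 7.02 and 7.75 FPKM in SLE1.2.3 cells, against 3.64, 3.44 and 3.64 FPKM in control cells (log2 difference 0.79 ± 0.09 (SE), adjusted p = 0.0078). Their ratios of means were 2.03 and 1.94, and in both the lowest SLE1.2.3 value lay above the highest control value.

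Nipa2, a magnesium transporter, rose less, at 6.58, 7.66 and 8.73 FPKM in SLE1.2.3 cells, against 5.71, 5.33 and 5.12 FPKM in control cells (log2 difference 0.43 ± 0.10 (SE), adjusted p = 0.041), and shares 18.6% of its exon bases with Cyfip1 on the other strand. The next member, Nipa1, named after its values were seen, did not pass: it had 1.94, 0.962 and 0.343 FPKM in SLE1.2.3 cells, against 1.44, 1.75 and 2.15 FPKM in control cells. SLE1.2.3 library 1 lay within the control range and libraries 2 and 3 below it, and the log2 difference was -0.48 ± 0.28 (SE), adjusted p = 0.27. Herc2, a large E3 ubiquitin ligase, averaged 9.40 ± 0.538 FPKM in SLE1.2.3 cells and 6.75 ± 1.13 FPKM in control cells, with no overlap of the groups and an adjusted p just above the threshold (log2 difference 0.43 ± 0.12 (SE), adjusted p = 0.057). Ube3a, the ligase lost in Angelman syndrome, averaged 4.03 ± 0.325 FPKM in SLE1.2.3 cells and 3.73 ± 0.263 FPKM in control cells (log2 difference 0.09 ± 0.08 (SE), adjusted p = 0.48), and Atp10a, a phospholipid flippase, averaged 19.7 ± 5.33 FPKM in SLE1.2.3 cells and 23.6 ± 1.59 FPKM in control cells (log2 difference -0.28 ± 0.19 (SE), adjusted p = 0.33). Of the 7 members with human counterparts in or beside that region, 3 rose and 4 did not pass, where 9.65% of all features rose.

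The interleaved genes were also counted by role, in lists chosen with results known; over all features tested, 9.65% rose and 5.58% fell. With so few members a list, no share was tested. Of 11 members with roles in cell cycle, DNA replication and repair, beside 5.58% of all features that fell and 9.65% that rose, 6 fell (Pold1, Fancf, Haus5, Cep89, Wdr62 and Uba2), 2 rose (Tubgcp5 and Vrk3) and 3 did not pass. The median log2 difference of these 11 was -0.28, against 0.01 over all features tested. Of 13 members listed under immune surface and signalling, 5 rose (among them Zbtb32, Hpn, Emp3 and Cd37), Lsr fell and 7 did not pass. The median log2 difference was 0.12, and the same 9.65% and 5.58% of all features rose and fell. That heading is broad, since it holds Hpn, a protease, and Lsr, a lipoprotein receptor. Zbtb32, a repressor, was listed there and not under transcription. Of 9 metabolic members, 4 rose (Cpt1c, Pepd, Dhdh and Aldh16a1), Bcat2 fell and 4 did not pass, with a median of 0.16; over all 114 members 23 rose and 22 fell.

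Of 17 members among transcription and chromatin genes, Atf5 rose, Ruvbl2 fell and 15 did not pass, with a median of -0.06. Zbtb32, which rose, was not on this list. Of 20 members in membrane traffic, protein folding and turnover, 3 rose, 3 fell and 14 did not pass. Of 9 members in RNA processing and translation, Nosip rose, Pop4 fell and 7 did not pass. Over all members, 69 did not pass, and in 24 of these the log2 difference was within 0.1 of 0. The median SE of the log2 difference was 0.10 over the members.

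SLE1.2.3 library 1 had the least of the γδ and CD8 T cell markers of its group, so its values for the members are set apart here. For each of the 45 members that passed, the difference of library 1 from the control mean was divided by the mean difference of libraries 2 and 3. The median ratio was 0.96, with quartiles of 0.72 and 1.11, and it was at least 0.75 in 30 of the 45, or 66.7%. Over all 1733 features that passed, the median ratio was 0.69, and 42.6% reached 0.75. The calls came from these same libraries and favour features whose libraries agree, so a ratio near 1 is partly built in. The part of the cell mixture in these ratios was not tested. When mice 2 and 3 of the SLE1.2.3 group were omitted, so that 1 library stood against 3 and was assumed to vary like the controls, 23 members passed, 15 higher and 8 lower, which is 20.2% beside 5.84% of all features.

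**Figure D4:**
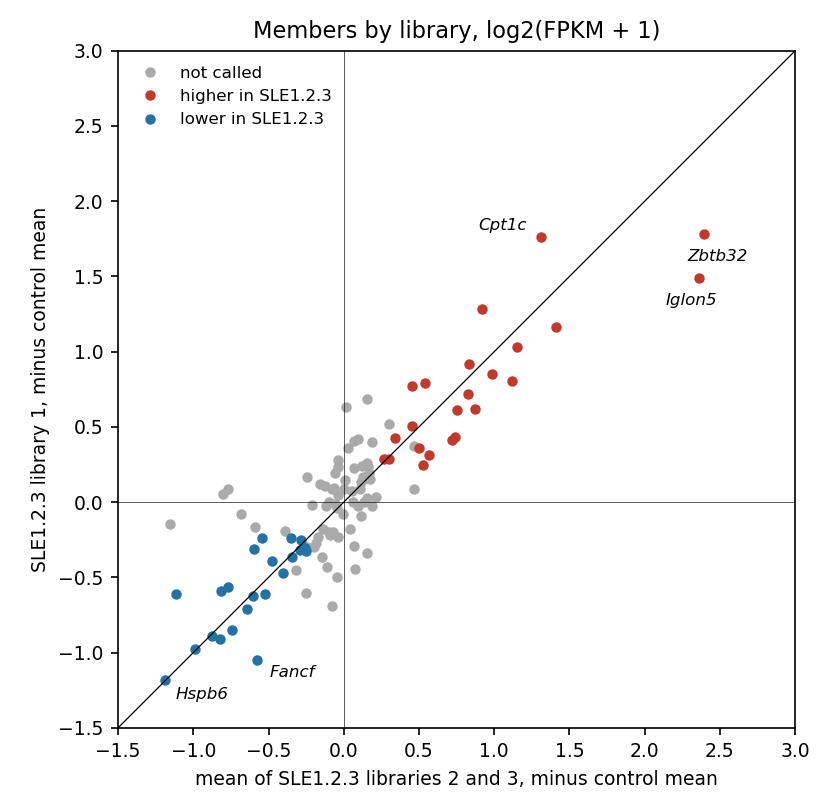
Difference from the control mean on the log2(FPKM + 1) scale in SLE1.2.3 library 1 (vertical axis) against the mean difference in libraries 2 and 3 (horizontal axis), 1 point a member. For the 45 members that passed, the median ratio of the vertical to the horizontal value was 0.96.

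In other members the SLE1.2.3 libraries differed among themselves, and the members given here did not pass with all mice. Clip3, a linker of microtubules and the Golgi, had 10.6, 6.32 and 3.56 FPKM in SLE1.2.3 cells, against 11.8, 13.4 and 10.5 FPKM in control cells (log2 difference -0.82 ± 0.32 (SE), adjusted p = 0.13). Gys1, muscle-type glycogen synthase, had 15.3, 13.4 and 7.04 FPKM in SLE1.2.3 cells, against 13.3, 17.7 and 18.1 FPKM in control cells (log2 difference -0.48 ± 0.28 (SE), adjusted p = 0.27). Lmtk3, a membrane-bound kinase, had 3.19, 1.37 and 1.25 FPKM in SLE1.2.3 cells, against 3.27, 3.28 and 2.58 FPKM in control cells (log2 difference -0.52 ± 0.25 (SE), adjusted p = 0.19). In these 3 genes, named after their values were seen, SLE1.2.3 library 1 lay within the control range and library 3 lay lowest, as Cd4 did at 257, 144 and 71.6 FPKM in SLE1.2.3 cells, against 246, 264 and 253 FPKM in control cells. They were picked for that order. Without SLE1.2.3 mouse 1, Clip3 passed at -1.15 (adjusted p = 0.0083), Lmtk3 at -0.80 (adjusted p = 0.0035) and Nipa1 at -0.77 (adjusted p = 0.028). In that fit 3701 of all 11378 features passed. Other members had the opposite order. Atp10a had 14.2, 19.98 and 24.9 FPKM in SLE1.2.3 cells, against 25.2, 22.00 and 23.8 FPKM in control cells, and E2f8, an atypical E2F repressor of the cell cycle, had 5.61, 6.30 and 8.76 FPKM in SLE1.2.3 cells, against 9.05, 8.94 and 9.12 FPKM in control cells (log2 difference -0.37 ± 0.14 (SE), adjusted p = 0.13). In both of these library 1 was the lowest of the SLE1.2.3 group, and neither passed.

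Many of the calls were lost when a single mouse was left out. In all 6 omissions of 1 mouse 13 of the 45 calls held, which include Zbtb32, Pepd, Cpt1c, Plekhf1, Tubgcp5, Cyfip1 and Tsg101 among those that rose and Hspb6, Pold1 and Pop4 among those that fell. Iglon5 was lost only without control mouse 2 and Dhdh only without SLE1.2.3 mouse 2, at adjusted p = 0.053 and 0.06. The other calls, 30 of 45, were lost in more omissions, and the largest adjusted p in any omission was 0.18. The 1733 calls over all features were not counted in this way, so no background share stands beside the 13. Single omissions left 240 to 3701 calls over all features.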

How the data were processed

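Polyadenylated RNA of 6 cultures was sequenced; the labels' protocols name a SMARTER library kit. Tools listed without role or order, per the submitters' processing notes, are STAR 2.7.3a, FastQC 0.11.9, DESeq2 1.24.0, featureCounts 2.0.0 and cutadapt 2.10, with the build mm10. The sources used here give neither the annotation release nor the strand setting of the counting. The authors deposited FPKM values for 33300 features in 1 table, with coordinates and biotypes, per the file headers.

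Depth was recovered from the FPKM steps: values under 30 reads came out whole, within 0.15 of a read, in 100% of those checked. Features that averaged 1 FPKM or more were put on the log2(FPKM + 1) scale, and limma 3.58.1 was run in R 4.3.3 (empirical Bayes with a mean-variance trend, genotype as the only term, two-sided). P-values were adjusted by Benjamini-Hochberg over all 11378 features, and "passed" or "called" means an adjusted p of at most 0.05. The fit was tested on simulated data. Counting error of a value is small at these depths for most members. It is larger for the 5 members with fewer than 100 reads in their lowest library. Such error is part of the spread between mice.

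The members, the role lists, the marker lists and the named genes were chosen with earlier results of these data known. Named were up to 12 members with the largest change in each direction among those that passed without overlap of the groups, the 2 with the highest mean in each 10 Mb, and a fixed set of 25 genes, of which 19 are members. Predicted and RIKEN genes were counted but not named; other names were chosen after their values were seen. A few members and markers were counted without being reported by name here. Strand and exon overlap came from GENCODE M21 (same build), near copies from blastn 2.17.0 at 95% identity or more over at least 20% of a transcript, and promoters from RefSeq for GRCm38.p6.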

Additional observations from a re-analysis of the deposited data

How the results depend on the processing

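The count of 45 members was 45 with a pseudocount of 0.1, 48 with median ratio scaling, 45 with quantile normalization, 44 with limma voom on the recovered reads (13.2% of all features), and 52 of 140 with the genes left out by name put back. The count was 25 with no filter on low values, where 798 of 30034 features passed. With tests at a mean of at least 5 FPKM, 27 of 78 members tested passed, beside 1129 of 7218 features. With a member limit of 5 FPKM it was 28 of 78. Calls over all 11378 features were 1804 with a pseudocount of 0.1, 1820 with median ratio scaling and 1802 with quantile normalization. Leaving out 1 mouse gave 14 to 51 members that passed, beside 240 to 3701 of all features. The mouse numbers share no stated litter or day, and the deviations of same-numbered mice correlated at -0.00401, 0.10 and 0.0914, so they were not taken as pairs. With the number as a replicate block, 28 members passed, 17 higher and 11 lower, beside 940 of all features. Over all features, 1098 were higher and 635 lower, against 990 and 351 with a common FPKM sum and 921 and 881 with quantile normalization; the members were then 20 and 10, and 22 and 23.

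No named member that passed reversed. Members that did not pass and whose log2 difference was negative turned positive as follows, and the cause was not tested. With a common FPKM sum these were Capns1 (0.107), Fxyd5 (0.054), Nr1h2 (0.05) and Ppp1r15a (0.004). Without SLE1.2.3 mice 2 and 3 they were Capns1 (0.096), Fxyd5 (0.123), Lmtk3 (0.057), Nipa1 (0.088), Nr1h2 (0.002) and Ppp1r15a (0.165), while Ube3a went to -0.001. Without SLE1.2.3 mouse 3 they were Capns1 (0.041), Fxyd5 (0.0) and Ppp1r15a (0.049), and Capns1 was at 0.025 without control mouse 1. Over the omissions of 1 mouse, the log2 difference ran from -0.062 to 0.041 for Capns1, from -0.155 to 0.0 for Fxyd5 and from -0.241 to 0.049 for Ppp1r15a.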

Other observations

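Features of the same window that the rule left out also differed, and they are given as values chosen after they were seen. Of 22 tested features that are not protein-coding, 5 passed, or 22.7%. The long non-coding RNA G630030J09Rik, antisense to Gramd1a, had 21.7, 12.6 and 13.8 FPKM in SLE1.2.3 cells, against 0.391, 0.388 and 0.803 FPKM in control cells. Gm45552 had 13.6, 13.1 and 9.17 FPKM in SLE1.2.3 cells, against 1.56, 1.56 and 2.33 FPKM in control cells. Gm31597 went the other way, with 0.023, 0.031 and 0 FPKM in SLE1.2.3 cells, against 3.82, 4.65 and 5.68 FPKM in control cells. Gm15545, antisense to Bcl2l12, had 7.45, 6.78 and 6.45 FPKM in SLE1.2.3 cells, against 3.40, 3.82 and 3.01 FPKM in control cells.

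Of the 171 protein-coding genes with a mean under 1 FPKM, 17 were listed at 0 in all libraries, and in 50, or 29.2%, the groups did not overlap, against 41.5% of the features tested. These genes were not tested, and the 4 given next were picked because they stand out. Tshz3, a zinc finger homeobox gene, had 0.892, 1.31 and 1.85 FPKM in SLE1.2.3 cells, against 0.091, 0.065 and 0.111 FPKM in control cells. The lectin gene Cd33 had 0.649, 0.582 and 0.457 FPKM in SLE1.2.3 cells, against 0.189, 0.233 and 0.203 FPKM in control cells. Snrpn, an imprinted gene of the Prader-Willi region, had 0.555, 0.721 and 1.01 FPKM in SLE1.2.3 cells, against 0.018, 0 and 0.031 FPKM in control cells. Nav2, a cytoskeletal regulator of neurons, had 0.001, 0.002 and 0.004 FPKM in SLE1.2.3 cells, against 0.271, 0.286 and 0.486 FPKM in control cells.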
